A study of Mus musculus with 36 samples.

Results

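The 10 genes described here are *Id1*, *Id2*, *Id3* and *Id4*, which encode inhibitor of differentiation proteins, and 6 genes that feed back on bone morphogenetic protein (BMP) signaling, *Smad6*, *Smad7*, *Smad9*, *Bambi*, *Nog* and *Grem1*. They were found by symbol among the 56246 genes of a table of RNA levels in mouse tibia, where each symbol had 1 row, and 10 of 10 passed the filter on low levels. The 3 groups compared held 12 mice each, 6 females and 6 males, all 6 months old. Wild-type mice had no injection. *LMNA* G/G mice carry a pair of copies of a human *LMNA* transgene with the classic progeria mutation on a bacterial artificial chromosome that also holds human *RAB25*, and they keep their mouse *Lmna*. They were injected on day 14 after birth with saline or with ABE, an adenine base editor split between a pair of AAV9 vectors with its guide RNA, which targets the mutant base of the transgene. The saline-treated and ABE-treated groups therefore share the transgene, whereas no group received the vectors without the transgene. The bones were freed of their epiphyses and marrow, which the paper describes as leaving mostly cortical bone. Markers of skeletal muscle and of neutrophils were nonetheless abundant in the RNA, as given below.

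BMPs bind pairs of serine/threonine kinase receptors on the cell surface, which phosphorylate a set of SMAD proteins that enter the nucleus with SMAD4 and bind DNA. *Id* genes are among the most direct targets of these SMADs, and the ID proteins bind basic helix-loop-helix (bHLH) factors and keep them off DNA. The pathway also induces its own inhibitors, inside the cell (*Smad6*, *Smad7*), at the receptor (*Bambi*) and outside the cell (*Nog*, *Grem1*), and BMP signals are known for inducing bone formation.

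Levels are given as scaled TPM, which are the deposited TPM (reads corrected for gene length and library total) after division of each library by 1 factor, taken as its median ratio to the geometric mean of every gene. Libraries held 48064068 to 116206662 reads on genes, and the 10 genes had between 84 reads (*Nog*) and 13663 reads (*Id3*) in a library. The 7335 very short genes of the table took 84.7% to 96.6% of the deposited TPM, so that deposited TPM of other genes move with those genes. The library of the ABE-treated female F109436 stood apart, since a single gene held 83.8% of its TPM against 40.3% to 73.2% in the other libraries, and its factor was 0.216. Mouse numbers of wild-type mice form their own series, so that genotype and any difference between the series cannot be told apart. The paper describes the 3 groups as littermates. Bone matrix genes marked all groups, with summed levels of 7 osteoblast markers of 717 to 3154 scaled TPM in wild-type mice, 516 to 2422 after saline and 789 to 2481 after ABE. Markers of osteocytes, which are bone cells, and of other tissues varied between the groups. Summed levels of 8 osteocyte markers were 12.3 to 53.3 in wild-type mice, 175 to 489 in saline-treated mice and 180 to 354 in ABE-treated mice, without overlap between wild-type and either *LMNA* G/G group. Those of 7 cartilage markers were 70.6 to 222, 6.63 to 33.9 and 15.1 to 70.3 in the same order, and those of 8 skeletal muscle markers were 193 to 2954, 290 to 7408 and 1005 to 12287. Those of 6 neutrophil markers were 716 to 2212, 970 to 3302 and 325 to 3681. None of these markers was at 0 in all libraries of a group. In bulk RNA, fewer cells of a type and less RNA per cell cannot be told apart.

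*Id3* and *Id1* were the most abundant of the 10 genes in each group, and the same order of *Id3*, *Id1*, *Smad7* and *Smad6* headed all 3 groups. In wild-type tibia, *Id3* had a mean of 9.58 ± 2.32 scaled TPM (SD, n = 12) and *Smad9*, the least abundant, 0.246 ± 0.0833 (SD, n = 12). Scaled TPM are per length, so levels can be compared between genes. Of 27 neighbouring pairs in the order of levels, 19 differed by an exact permutation test within libraries at an adjusted p under 0.05. Of the 8 that did not, *Smad7* and *Smad6* were at 3.01 and 2.83 in wild-type mice (adjusted p = 0.143, exact permutation test) and *Smad6* and *Bambi* at 3.44 and 3.12 in saline-treated mice (adjusted p = 0.143, exact permutation test). The others were *Bambi* and *Id4* in wild-type mice, *Id2* and *Grem1* and *Nog* and *Smad9* in saline-treated mice, and *Id2*, *Nog*, *Grem1* and *Id4*, each with the next, in ABE-treated mice. *Bambi* was 7th of the 10 in wild-type mice and 5th in both *LMNA* G/G groups.

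**Figure D1:**
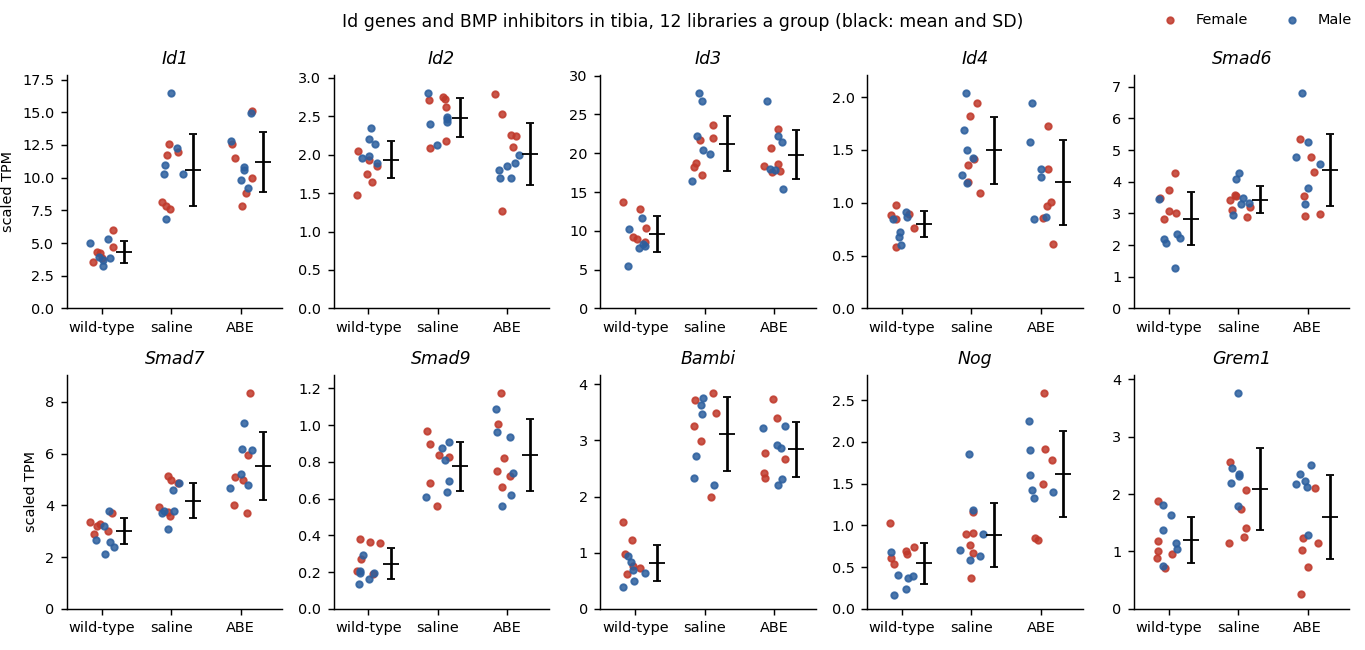
Each point is 1 library, with scaled TPM on a linear axis from 0, the group on the horizontal axis and sex by color, and the black bars are the mean and SD of 12 libraries. For *Id1*, *Id3*, *Smad9* and *Bambi* all 24 *LMNA* G/G libraries sit above all 12 wild-type libraries, whereas *Id2* and *Smad6* overlap.

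The set of RefSeq starts on GRCm38.p6 used here covered 6 of the 10 genes and lacked *Id1*, *Smad7*, *Bambi* and *Nog*, which were not searched. From 250 bases before to 50 bases after each start, both strands were searched for letters that SMADs are known to bind. These were GGCGCC, a motif bound by BMP-activated SMADs, the palindrome GTCTAGAC, and CAGAC or its complement GTCTG. They are shown because the genes are textbook targets of these factors, with the motif in capitals and 30 bases each, read 5′ to 3′ on the strand of the gene.

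Id2, bases -231 to -226, chr12:25096306-25096335, minus strand: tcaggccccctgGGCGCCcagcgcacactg
Id4, bases -148 to -143, chr13:48260956-48260985, plus strand: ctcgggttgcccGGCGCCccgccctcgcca
Smad9, bases -51 to -46, chr3:54755519-54755548, plus strand: gcacggccgcctGGCGCCcttccagcgcgg
Grem1, bases -78 to -73, chr2:113758709-113758738, minus strand: cgcggcggcgacGGCGCCtgaccaatggag
Smad6, bases -4 to 4, chr9:64022045-64022074, minus strand: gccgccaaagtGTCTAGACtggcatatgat
Id3, bases -167 to -163, chr4:136143643-136143672, plus strand: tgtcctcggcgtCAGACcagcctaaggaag
Id3, bases -68 to -64, chr4:136143742-136143771, plus strand: ggacccttggcgGTCTGttttgaataaggg

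GGCGCC was present in 4 of the 6 stretches (*Id2*, *Id4*, *Smad9* and *Grem1*) and in 11.9% of all 32851 RefSeq stretches of the same length. GTCTAGAC was present in that of *Smad6* alone, where it spans the start, and in 0.213% of all stretches. CAGAC or GTCTG was present in 2 of the 6 (*Id3* and *Grem1*) and in 49.6% of all stretches. GTCTAGAC contains neither CAGAC nor GTCTG. The RefSeq starts used for *Id2* and *Id3* lie inside the GENCODE genes given below. Their matches above are thus before the RefSeq start but within the GENCODE gene. The matches are a description of letters and no measurement of binding.

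Progeria tibiae were first compared with wild-type in the saline-treated mice. The *Id* genes and the BMP inhibitors were mostly higher, by 1.27-fold to 3.61-fold among the 9 genes that passed the test and led by *Bambi*, *Smad9*, *Id1* and *Id3*. None was lower, and *Smad6* did not pass. For 5 of the 10 genes (*Id1*, *Id3*, *Id4*, *Smad9* and *Bambi*) all saline-treated libraries lay above all wild-type libraries. The test was limma over 22553 genes with sex as a covariate and Benjamini-Hochberg adjustment, of which 50% were called, 23.7% as higher and 26.4% as lower. Without overlap, 2.31% were higher and 4.8% lower. The median log2 fold change of the 10 genes was 0.78, and that of all genes tested was -0.0026.

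The *Id* genes rose together but by different amounts. *Id1* (chr2:152736251-152737410) had a lowest, median and highest level of 3.26, 4.11 and 6.04 scaled TPM in wild-type mice, and of 6.82, 10.6 and 16.5 in saline-treated mice. The lowest saline-treated mouse was thus above the highest wild-type mouse, with a log2 fold change of 1.25 ± 0.13 (SE, limma adjusted p = 9.6e-10). *Id3* (chr4:136143497-136145755), which is often expressed along with *Id1*, went from 5.41, 9.09 and 13.7 in wild-type to 16.4, 21.1 and 27.8 in saline-treated mice. Its groups did not overlap either, and the log2 fold change was 1.16 ± 0.11 (SE, limma adjusted p = 5.7e-10). *Id4* (chr13:48261228-48266026) was less abundant, at 0.586, 0.848 and 0.975 in wild-type and 1.09, 1.42 and 2.04 in saline-treated mice. It also rose without overlap, by a log2 fold change of 0.82 ± 0.13 (SE, limma adjusted p = 6.4e-06). *Id2* (chr12:25093799-25097140) moved least, from 1.48, 1.95 and 2.34 to 2.09, 2.48 and 2.81 scaled TPM. Its groups overlapped, with 9 of 12 saline-treated libraries above the highest wild-type library, and its log2 fold change was 0.35 ± 0.087 (SE, limma adjusted p = 0.0013).

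Of the genes that act inside the cell, *Smad9* rose most. It encodes a receptor-activated SMAD of the BMP branch that is itself induced by the pathway (chr3:54755582-54801257). Its levels were 0.135, 0.204 and 0.380 scaled TPM in wild-type and 0.559, 0.818 and 0.970 in saline-treated mice. The groups were separate, with a log2 fold change of 1.36 ± 0.11 (SE, limma adjusted p = 2.2e-11). *Smad7*, the inhibitory SMAD of both the BMP and TGF-β branches on chromosome 18, was at 2.12, 3.11 and 3.78 in wild-type and 3.10, 3.86 and 5.15 in saline-treated mice. Its log2 fold change was 0.46 ± 0.11 (SE, limma adjusted p = 0.00081), and 8 of 12 saline-treated libraries exceeded the highest wild-type library. *Smad6*, the inhibitory SMAD that acts mainly on BMP signals (chr9:63953076-64022059), was at 1.29, 2.93 and 4.27 in wild-type and 2.87, 3.39 and 4.29 in saline-treated mice. Only 1 saline-treated library exceeded the highest wild-type library, and the log2 fold change of 0.32 (95% interval 0.033 to 0.61) did not pass the adjusted threshold (limma adjusted p = 0.059). It did pass, just at the threshold, with limma-voom on the reads recovered from TPM (0.34, limma-voom adjusted p = 0.04997), where 10 of the 10 genes were higher. By that test 5382 of all 22553 genes were higher and 6167 lower.

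At the cell surface, *Bambi*, a pseudoreceptor that lacks the kinase domain and blocks receptor pairs, had the largest difference of the 10. It was at 0.394, 0.746 and 1.54 scaled TPM in wild-type and 1.99, 3.37 and 3.85 in saline-treated mice. This was a log2 fold change of 1.85 ± 0.14 (SE, limma adjusted p = 2.9e-12) without overlap, and 0.794% of all genes tested had a larger one. The secreted antagonists rose less evenly. *Grem1* (chr2:113746164-113758646), a BMP antagonist of the DAN family, went from 0.717, 1.10 and 1.88 to 1.14, 2.12 and 3.77, with a log2 fold change of 0.74 ± 0.21 (SE, limma adjusted p = 0.0038). *Nog* (chr11:89300638-89302332), which encodes noggin, a protein that binds BMPs and keeps them from their receptors, went from 0.171, 0.574 and 1.03 to 0.372, 0.834 and 1.86, with a log2 fold change of 0.63 ± 0.21 (SE, limma adjusted p = 0.014). Groups overlapped for both. Skeletal muscle markers were also higher after saline, 6 of 8 of them, and with these as a covariate the log2 fold change of *Nog* was 0.11 (limma adjusted p = 0.40). *Nog* did not pass on deposited TPM either (0.50, limma adjusted p = 0.093).

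On TPM as deposited, 5 of the 10 genes were higher and 0 lower (*Id1*, *Id3*, *Id4*, *Smad9* and *Bambi*), and over all genes the split of higher and lower calls was 1462 and 4835 against 5341 and 5945 on scaled TPM. With the mean level of the osteocyte markers as a covariate, 0 of the 10 were called higher and 1 lower (*Smad6*, log2 fold change -1.02, limma adjusted p = 0.0040). Over all genes, 1151 were then called higher and 2807 lower. The ranges of these markers do not overlap between these groups, so the share of that covariate and of the group cannot be told apart.

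**Figure D2:**
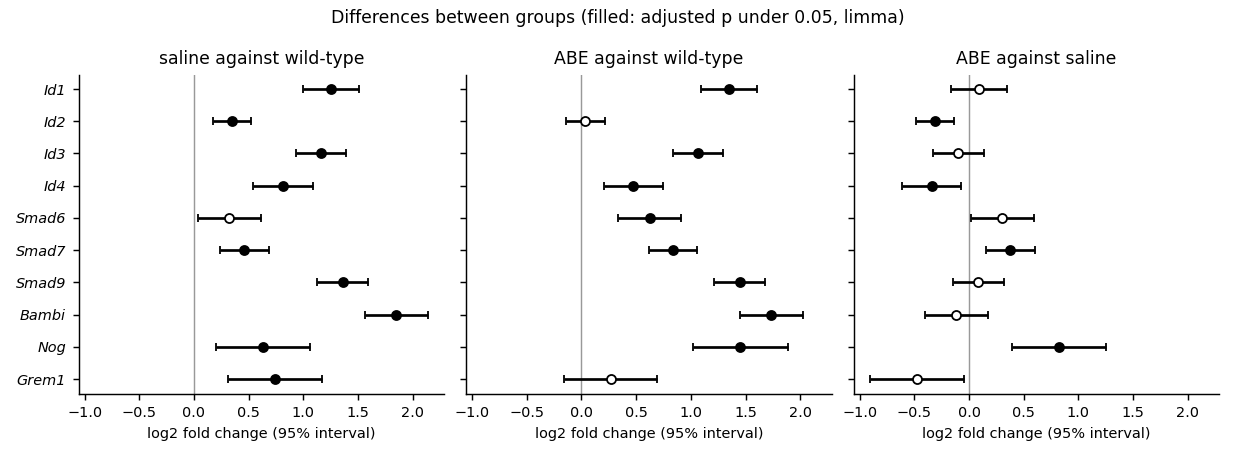
Points are log2 fold changes of scaled TPM + 0.1 between groups of 12 libraries and bars are 95% intervals from limma, with 1 panel for each comparison and filled points for an adjusted p under 0.05. Differences from wild-type are mostly right of 0, up to 1.85 for *Bambi*, while those between ABE-treated and saline-treated mice lie between -0.48 and 0.82.

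In the ABE-treated mice, 8 of the 10 genes were again higher than in wild-type and 0 were lower, while *Id2* and *Grem1* did not pass. Over all genes 67% were called, 33% as higher and 34.1% as lower. Without overlap, 3.18% were higher and 5.36% lower, and 4 of the 10 were higher (*Id1*, *Id3*, *Smad9* and *Bambi*). The median log2 fold change was 0.95, and that of all genes was -0.018. These values share their wild-type libraries with those of the saline-treated mice. *Bambi* was at 2.21, 2.82 and 3.74 scaled TPM (lowest, median and highest), a log2 fold change of 1.74 ± 0.14 (SE, limma adjusted p = 9.0e-12). *Smad9* was at 0.557, 0.786 and 1.18, *Id1* at 7.83, 10.7 and 15.1 and *Id3* at 15.5, 18.5 and 26.7. Their log2 fold changes were 1.45 for *Smad9*, 1.35 for *Id1* and 1.06 for *Id3*. All ABE-treated libraries lay above all wild-type libraries for these 4 genes. *Nog* rose by a log2 fold change of 1.45 ± 0.21 (SE, limma adjusted p = 5.0e-07), with levels of 0.825, 1.55 and 2.59, and 10 of 12 libraries exceeded the highest wild-type library. *Smad7*, at 3.70, 5.15 and 8.35, rose by 0.84 ± 0.11 (SE, limma adjusted p = 8.5e-08). *Smad6*, at 2.91, 4.44 and 6.82, passed here with a log2 fold change of 0.62 ± 0.14 (SE, limma adjusted p = 0.00025). It did not pass with the muscle markers as a covariate (0.22, limma adjusted p = 0.33), with the endothelial markers (0.22, limma adjusted p = 0.059) or on deposited TPM (0.060, limma adjusted p = 0.80). *Id4*, at 0.612, 1.13 and 1.95, was higher by 0.47 ± 0.13 (SE, limma adjusted p = 0.0023), although on deposited TPM the difference was -0.022. *Id2* levels of 1.27, 1.94 and 2.79 gave a log2 fold change of 0.037 (95% interval -0.14 to 0.21). *Grem1* levels of 0.263, 1.70 and 2.50 gave 0.27 (95% interval -0.16 to 0.69). Both of these differences were negative on deposited TPM, at -0.50 and -0.20, and there 5 of the 10 genes were higher and 1 (*Id2*) was lower, with 2144 genes higher and 12453 lower over all genes. With the osteocyte markers as a covariate, 0 of the 10 passed, as did 3818 of all 22553 genes.

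Treatment itself was read from ABE-treated against saline-treated mice, which carry the same transgene and come from the same series of mouse numbers. No group received vectors without the editor, so that exposure to the vectors and editing cannot be told apart. *Nog* and *Smad7* were higher after ABE, *Id2* and *Id4* were lower, and the other 6 genes did not pass. Without overlap, 0 of the 10 differed, as did 0.0266% of all genes as higher and 0.0133% as lower. Over all genes 43.5% were called, 23.3% as higher and 20.2% as lower, so that 4 of 10 is near the share of all genes. The median log2 fold change of the 10 was -0.0067, and that of all genes was 0.0031. *Nog* had a mean of 0.886 ± 0.383 scaled TPM (SD, n = 12) after saline and 1.61 ± 0.518 (SD, n = 12) after ABE. The log2 fold change was 0.82 ± 0.21 (SE, limma adjusted p = 0.0033), and 11 of 12 ABE-treated libraries were above the saline-treated median. *Smad7* went from 4.17 ± 0.673 (SD, n = 12) to 5.52 ± 1.32 (SD, n = 12), with a log2 fold change of 0.38 ± 0.11 (SE, limma adjusted p = 0.0071). On scaled TPM the means of *Nog* and *Smad7* were thus farther from wild-type after ABE than after saline, while on deposited TPM *Smad7* turned to -0.022 and *Nog* no longer passed. *Id2* fell by 0.31 on the log2 scale (limma adjusted p = 0.0054), from 2.48 ± 0.25 (SD, n = 12) to 2.01 ± 0.408 (SD, n = 12), against 1.93 in wild-type. *Id4* fell by 0.34 on the log2 scale (limma adjusted p = 0.037), from 1.5 ± 0.314 (SD, n = 12) to 1.19 ± 0.403 (SD, n = 12), against 0.799 in wild-type. On scaled TPM these 2 genes were nearer to the wild-type mean after ABE. On deposited TPM that does not hold for *Id2*, whose means were 2.37 in wild-type mice, 2.64 after saline and 1.73 after ABE, with log2 fold changes against wild-type of 0.18 after saline (limma adjusted p = 0.50) and -0.50 after ABE (limma adjusted p = 0.018). With TPM rescaled without the very short genes, *Id2* differed from wild-type by 0.16 and -0.18.

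The remaining genes had intervals that include small differences in either direction or just miss the threshold. *Id1* differed by 0.094 (95% interval -0.16 to 0.35), *Id3* by -0.098 (-0.33 to 0.13), *Smad9* by 0.084 (-0.15 to 0.32) and *Bambi* by -0.12 (-0.40 to 0.17). *Smad6* differed by 0.30 (0.014 to 0.59, limma adjusted p = 0.083) and *Grem1* by -0.48 (-0.90 to -0.048, limma adjusted p = 0.065). Skeletal muscle markers also moved between these groups, with 7 of 8 higher after ABE and a median log2 fold change of 1.34, as did 5 of 9 endothelial markers. Higher after ABE were also 4 of 6 smooth muscle and pericyte, 3 of 6 cartilage and 3 of 5 periosteum and fibroblast markers. Lower were 5 of 7 osteoclast, 5 of 6 neutrophil, 4 of 5 erythroid, 5 of 5 monocyte and macrophage and 4 of 5 adipocyte markers. Beyond the covariate fits that follow, the part of these lists in the result was not tested. With the muscle markers as a covariate 0 of the 10 passed, and with the endothelial markers 2 did (*Id3* and *Id4*, both lower). Over all 22553 genes, 2298 passed with the muscle and 4322 with the endothelial covariate. On deposited TPM 5 of the 10 were lower and 0 higher, with 775 genes higher and 8083 lower over all genes. The call of *Id4* was lost in 10 of 36 fits that left out 1 library, F109436 among them.

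**Figure D3:**
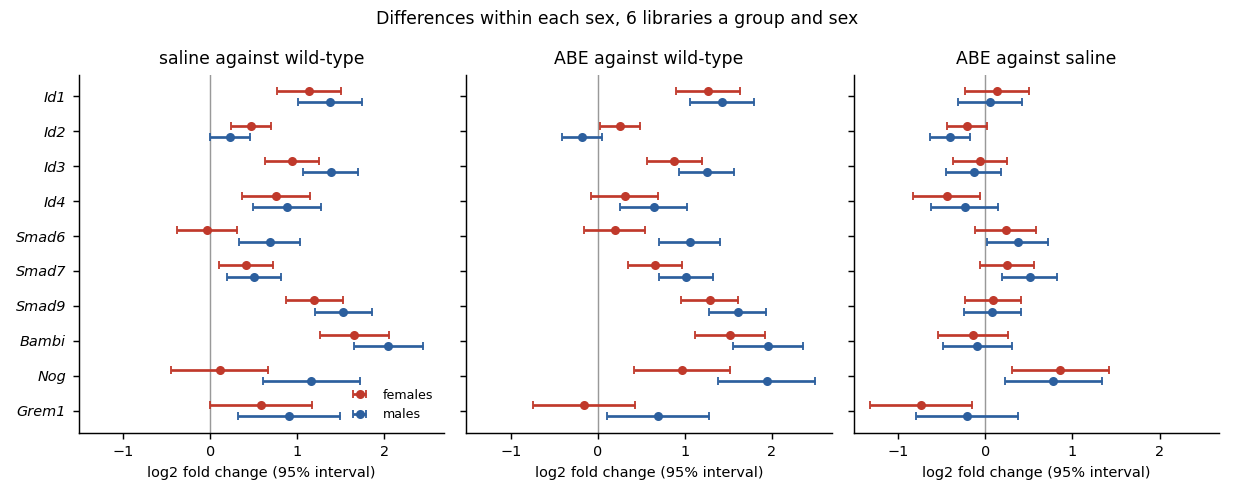
Points are log2 fold changes within females (red) and within males (blue), with 6 libraries a group and sex, and bars are 95% intervals from limma. The gap between the sexes for *Smad6* in ABE-treated against wild-type mice, 0.86, is the only one that passed its test, and *Nog* and *Grem1* show gaps of like size.

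Only 1 difference between the sexes passed among the 10 genes and 3 comparisons, that of *Smad6* in ABE-treated against wild-type mice. *Smad6* was at 2.84, 3.28 and 4.27 scaled TPM (lowest, median and highest) in wild-type females and 1.29, 2.21 and 3.47 in wild-type males. In saline-treated mice it was at 2.87, 3.32 and 3.60 in females and 2.95, 3.42 and 4.29 in males. The log2 fold change against wild-type was therefore -0.037 (95% interval -0.39 to 0.31) in saline-treated females and 0.68 (0.33 to 1.03) in males. The difference between the sexes was 0.72 ± 0.24 (SE) and did not pass (limma interaction, adjusted p = 0.11). In ABE-treated mice *Smad6* differed from wild-type by 0.20 (-0.15 to 0.55) in females and by 1.05 (0.70 to 1.40) in males. This difference of 0.86 ± 0.24 (SE) passed (limma interaction, adjusted p = 0.0496), as did that of 2.65% of all genes. *Nog* was at 0.542, 0.669 and 1.03 in wild-type females and 0.171, 0.380 and 0.681 in wild-type males. It rose in saline-treated males by 1.16 (0.60 to 1.71), and in females it differed by 0.11 (-0.45 to 0.66). The difference between the sexes, 1.05 ± 0.39 (SE), did not pass (limma interaction, adjusted p = 0.13). In ABE-treated mice *Grem1* differed from wild-type by -0.16 in females and 0.69 in males, a difference between the sexes of 0.85 ± 0.41 (SE; limma interaction, adjusted p = 0.25). *Id2* differed by 0.26 in females and -0.18 in males, a difference of -0.44 ± 0.16 (SE; limma interaction, adjusted p = 0.12). By the interaction, 0 of the 10 genes passed for saline-treated against wild-type mice, where 0.479% of all genes did, and 0 passed for ABE-treated against saline-treated mice, where 0.0532% did. At an unadjusted interaction p under 0.05, 3 of the 10 (*Id3*, *Smad6* and *Nog*) differed between the sexes for saline-treated against wild-type mice, where 21.4% of all genes did. For ABE-treated against wild-type mice 4 of the 10 (*Id2*, *Smad6*, *Nog* and *Grem1*) did, against 19% of all genes, and for ABE-treated against saline-treated mice 0 did, against 14.8% of all genes. *Id1*, *Id3*, *Smad9* and *Bambi* were higher than wild-type in either sex and in either *LMNA* G/G group.

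Levels of the 10 genes also varied together among mice of the same group and sex. The mean of each group and sex was removed from log2(scaled TPM + 0.1), and the 45 pairs of genes were correlated over 36 libraries with a permutation test of 100000 resamples. Of the 45 pairs, 29 passed at an adjusted p under 0.05, of which 25 were positive. The closest were *Id1* with *Smad7*, at a Pearson's r of 0.86 (adjusted permutation p = 4.1e-05, from the smallest p that the resamples can give, 1e-05) and a Spearman's rho of 0.90 (adjusted permutation p = 4.1e-05). *Smad6* with *Smad7* followed, at r = 0.85 and rho = 0.82, and then *Id3* with *Smad6* at r = 0.80 and rho = 0.75, each with the same adjusted permutation p of 4.1e-05 for both measures. Without the 2 libraries farthest from the median of the first gene, r was 0.86, 0.83 and 0.71 for these 3 pairs. *Id1* and *Smad7* were also correlated within each group, at r = 0.90 in wild-type mice, 0.96 after saline and 0.83 after ABE. *Id2* and *Grem1* were not in this group on scaled TPM. *Id4* was correlated with some of its genes, with *Id3* at r = 0.48 and rho = 0.52 (adjusted permutation p = 0.0067 and 0.0032) and with *Bambi* at r = 0.39 and rho = 0.46 (adjusted permutation p = 0.029 and 0.01). *Id4* with *Grem1* had r = 0.64 and rho = 0.55 (adjusted permutation p = 9e-05 and 0.0016), and *Id1* with *Id2* had r = -0.19 and rho = -0.11 (adjusted permutation p = 0.33 and 0.57). The 4 negative pairs that passed, *Id2* with *Smad7* and *Nog* and *Grem1* with *Smad7* and *Nog*, did not pass without F109436. Their r without that library was -0.18 and -0.37 for *Id2* and -0.27 and -0.26 for *Grem1*, and *Id2* with *Nog* just missed the threshold (adjusted permutation p = 0.052). Without that library 24 pairs passed and 24 were positive. On deposited TPM 41 of the 45 pairs passed and 41 were positive, most pairs of *Id2* and *Grem1* among them.

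**Figure D4:**
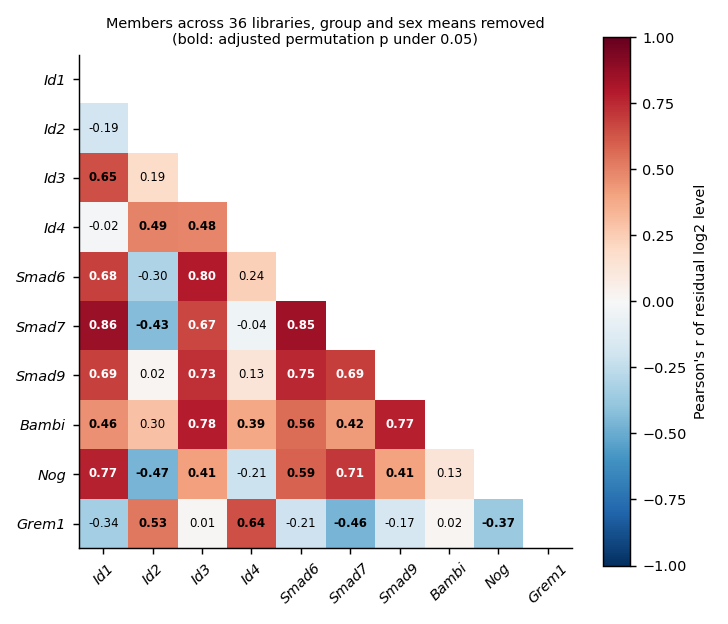
Each cell is Pearson's r of residual log2 levels of a pair of genes over 36 libraries, after removal of the mean of each group and sex, with bold numbers for an adjusted permutation p under 0.05. The block of *Id1*, *Id3*, *Smad6*, *Smad7* and *Smad9* is positive throughout, from 0.65 to 0.86, and on scaled TPM *Id2* and *Grem1* lie outside it.

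Marker levels moved with these residuals too, among 40 correlations of the 10 genes with 3 marker lists and the scaling factor. *Bambi* followed the osteocyte markers at r = 0.85 and rho = 0.87, *Nog* the skeletal muscle markers at r = 0.90 and rho = 0.90, and *Smad6* the endothelial markers at r = 0.80 and rho = 0.71 (adjusted permutation p = 6.7e-05 for each of the 6 values). Without the 2 libraries farthest from the median of the marker level, r was 0.87, 0.88 and 0.70. With osteocyte markers 7 of the 10 genes correlated positively and 0 negatively, with endothelial markers 7 and 0, and with muscle markers 4 and 3. With the scaling factor 2 correlated positively (*Id2* and *Grem1*) and 3 negatively, and for those 2 genes r fell to 0.086 and 0.0040 without the 2 libraries of the most extreme factors. Pairs of genes therefore share their libraries' makeup, and its part in their correlation was not tested.

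The genes most like *Id1* over the same 36 libraries, among 9328 genes of at least 500 bp and a mean of at least 1 scaled TPM, were *Gprasp1* (r = 0.92), *Cped1* (0.88), *Plekhh3* (0.86), *Zfhx3* (0.86) and *Smad7* (0.86), so that an inhibitory SMAD ranked 5th. Those most like *Smad6* were *Hoxc6* (0.94), *Plcg1* (0.94), *Slc12a4* (0.92), *Slc22a17* (0.91) and *Tnks1bp1* (0.91), and *Smad7* ranked 57th. These ranks are descriptions without a test.

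The rest of the pathway was read from 6 lists with 61 genes, of which 56 passed the filter on low levels. Against wild-type, 36 were higher and 3 lower after saline, and 45 were higher and 2 lower after ABE. In ABE-treated against saline-treated mice 25 were higher and 2 lower. On deposited TPM these counts were 15 and 3, 19 and 7, and 2 and 3, so that the last comparison has no direction that both scalings share. For the lists below, the shares of all genes on scaled TPM were 23.7% higher and 26.4% lower after saline than in wild-type mice. They were 33% and 34.1% after ABE against wild-type, and 23.3% and 20.2% in ABE-treated against saline-treated mice.

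Of the ligands, 6 of 8 were higher in saline-treated than in wild-type mice and 1 was lower. *Bmp8a* had a log2 fold change of 1.78, *Bmp3*, which encodes a BMP abundant in bone that opposes other BMPs, 1.64, *Bmp7* 1.56 and *Bmp4* 0.88. *Gdf10*, a relative of *Bmp3*, was lower, at -0.74, and was the ligand higher after ABE than after saline, at 0.64 on scaled TPM. In ABE-treated against wild-type mice 6 of 8 ligands were higher and 0 lower, with *Bmp8a* at 1.94 and *Bmp2* at 0.89. On deposited TPM the counts against wild-type were 4 higher and 1 lower after saline and 3 higher and 2 lower after ABE.

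Of 10 receptors and coreceptors, 6 were higher after saline and 9 after ABE than in wild-type mice, and 7 were higher in ABE-treated than in saline-treated mice, with 0 lower in any of these on scaled TPM. *Bmpr1a*, a type I BMP receptor, was at a mean of 1.17 ± 0.358 scaled TPM (SD, n = 12) in wild-type mice, 1.91 ± 0.545 (SD, n = 12) after saline and 3.14 ± 1.08 (SD, n = 12) after ABE. *Rgma*, a coreceptor anchored in the membrane, was at 0.568 ± 0.236 (SD, n = 12), 0.608 ± 0.330 (SD, n = 12) and 1.42 ± 0.615 (SD, n = 12), and differed by 1.14 between ABE-treated and saline-treated mice (limma adjusted p = 0.00094). On deposited TPM 2 of the 10 receptors were higher in that comparison, 2 were higher after saline and 6 higher and 1 lower after ABE against wild-type, and with TPM rescaled without the very short genes 1 was lower in each *LMNA* G/G group against wild-type.

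Of the SMADs and their regulators inside the cell, 7 of 10 were higher after saline and 9 after ABE than in wild-type mice, and 0 were lower. On deposited TPM the counts against wild-type were 1 higher and 0 lower in saline-treated mice, and 2 higher and 2 lower in ABE-treated mice. *Tob1*, a repressor of BMP signals in osteoblasts, was highest after ABE, at 4.14 ± 1.38, 7.54 ± 3.51 and 13.6 ± 6.04 scaled TPM (SD, n = 12) in wild-type mice, after saline and after ABE. *Skil*, a corepressor of SMADs, had log2 fold changes of 0.68 and 0.94 against wild-type, and *Smad1* had 0.38 in saline-treated mice.

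Among the other secreted antagonists, 6 of 10 were higher after saline and 7 after ABE than in wild-type mice, and 0 were lower. On deposited TPM 1 was higher after saline and 2 after ABE, with 0 lower. *Fst*, which encodes follistatin, had log2 fold changes of 0.98 in both groups against wild-type. *Crim1*, a membrane protein that holds BMPs, had 0.54 and 1.04. *Chrdl1*, which encodes a chordin-like protein, rose in saline-treated mice (0.63) and fell by 0.50 on the log2 scale from saline to ABE (limma adjusted p = 0.0042), as *Id2* and *Id4* did. *Nbl1* was higher after ABE than after saline by 0.88 on scaled TPM.

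Other genes known to be induced by BMPs were mostly higher as well, 5 of 9 after saline and 7 of 9 after ABE against wild-type, with 1 lower in each. On deposited TPM 3 were higher and 1 lower in each. *Tnfrsf11b*, which encodes the RANKL decoy osteoprotegerin, had log2 fold changes of 1.51 and 1.64, and *Dlx3*, a homeobox gene of bone, had 1.17 and 1.15. *Sp7*, which encodes osterix, the transcription factor required for osteoblasts, was also a marker in the osteoblast list and had 0.68 in saline-treated mice. *Atoh8* and *Hey1* were higher after ABE than after saline, by 0.65 and 0.61 on scaled TPM.

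Of the 9 bHLH partners and targets of ID proteins, 6 were higher and 1 lower in saline-treated mice, and 7 and 1 in ABE-treated mice, against wild-type. On deposited TPM 4 were higher and 1 lower after saline, and 3 and 1 after ABE. *Cdkn1a*, which encodes the cell cycle inhibitor p21 and is repressed by ID proteins, was at 1.76 ± 0.530, 6.95 ± 1.61 and 8.27 ± 1.77 scaled TPM (SD, n = 12) in wild-type mice, after saline and after ABE. *Tcf3*, which encodes E proteins that ID proteins bind, was the 1 lower gene, at 13.9 ± 1.71, 9.87 ± 1.62 and 8.30 ± 2.12 (SD, n = 12). *Tcf4* and *Tcf12*, which encode other E proteins, were higher than wild-type on scaled TPM. Log2 fold changes after saline and after ABE were 0.37 and 0.61 for *Tcf4* and 0.13 and 0.21 for *Tcf12*. On deposited TPM they were 0.21 and 0.056 for *Tcf4* and -0.036 and -0.33 for *Tcf12*. *Scx*, a bHLH factor of tendon, had log2 fold changes of 1.01 and 1.82.

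**Figure D5:**
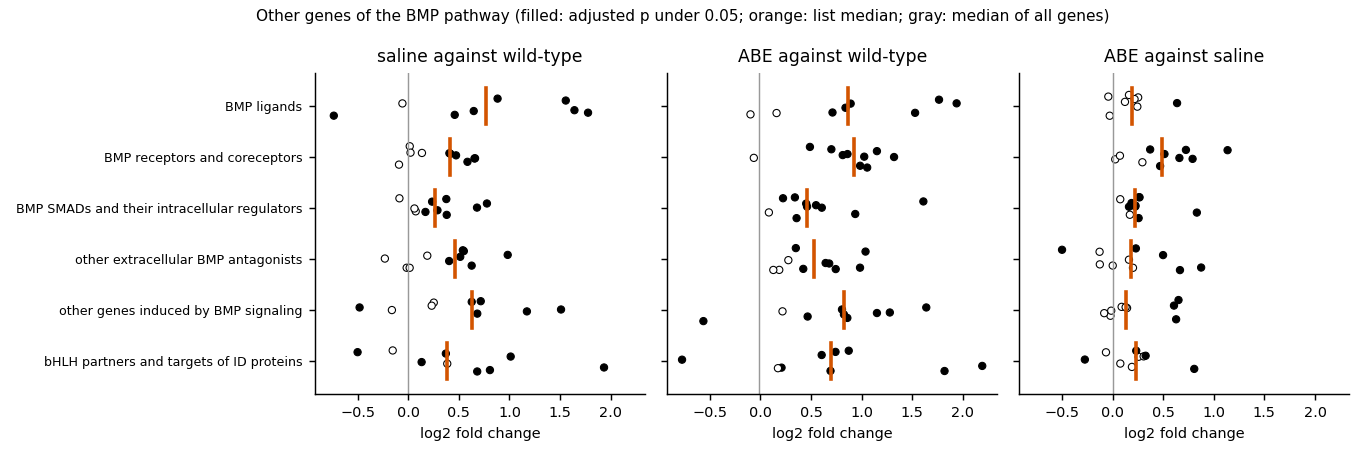
Each point is 1 gene of a list, with its log2 fold change of scaled TPM + 0.1 on the horizontal axis, filled for an adjusted p under 0.05, and orange bars are list medians beside a gray line at the median of all genes. List medians against wild-type lie between 0.26 and 0.92, and those of ABE-treated against saline-treated mice between 0.13 and 0.49.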

How the data were processed

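RNA from tibiae of 36 mice, 1 library a mouse, was extracted with TriZol, treated with DNase and made into stranded poly(A) libraries. The authors aligned paired-end reads to GRCm38 with STAR (2.73a in the submitters' processing notes), quantified GENCODE genes with QoRTs and deposited TPM. How TPM were calculated is not given in the sources used here. The table also holds gene lengths, used to recover reads. All values above 0 were whole reads within 0.01, as TPM × (length less 218 bp, at least 1 bp) over a constant per library. For each of 731 repeated symbols, the row with the highest mean was taken, leaving 55484 symbols.

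TPM were divided by median ratio factors over the 14217 genes above 0 in all libraries whose mean reached 0.5 TPM, which moved the median log2 fold change of all genes from -0.15, -0.49 and -0.31 (saline-treated and ABE-treated against wild-type, ABE-treated against saline-treated) to -0.0026, -0.018 and 0.0031. Genes with a mean of at least 0.1 scaled TPM were tested with limma on log2(scaled TPM + 0.1), which understates changes of low genes. The authors' DESeq2 needs counts and was not used here as the test. Calls needed a Benjamini-Hochberg adjusted p under 0.05 over all genes. Replicates are separate mice. Intervals are 95%. The fits were tested on simulated data. The 10 genes, the lists and the settings were chosen with earlier results of these data known. Named were the 10 genes, and of each pathway list genes called in a comparison with a mean of at least 0.5 scaled TPM in a group, at most 4 a list and comparison by size of change, of which the text gives a selection. *Tcf4* and *Tcf12* were named in addition, beside *Tcf3*. Gene positions are GENCODE on GRCm38. Alternatives were 4 scalings, pseudocounts of 0.5 and 0.01, a filter at 0.5 and none, limma-voom on recovered reads, array weights, no sex covariate, the compared groups alone, each sex alone, 3 marker covariates and each library left out. Other marker lists (7 osteoclast, 6 smooth muscle and pericyte, 5 periosteum and fibroblast, 5 adipocyte, 7 B cell, 6 neutrophil, 5 erythroid, 5 monocyte and macrophage genes) were counted too. In saline-treated against wild-type mice they gave 7, 1, 1, 1, 0, 2, 0 and 1 higher and 0, 0, 3, 2, 6, 0, 0 and 0 lower genes in that order. Tools were limma 3.58.1 in R 4.3.3, and scipy 1.17.1, pandas 2.3.3, numpy 2.4.6 and matplotlib 3.10.9 in Python 3.11.15.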

Additional observations from a re-analysis of the deposited data

Results flagged for a closer look

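*Smad6* differed between the sexes in its change from wild-type to ABE-treated mice. The male log2 fold change of 1.05 less the female one of 0.20 was 0.86 ± 0.24 (SE, limma interaction, adjusted p = 0.0496), with 6 libraries a group and sex. The test of this difference was added after the data were seen. It was 1.30 (limma interaction, adjusted p = 0.030) on TPM as deposited and 0.95 (adjusted p = 0.024) without the library F109436. The adjusted p lies at the threshold, and in saline-treated against wild-type mice the same difference was 0.72 and did not pass (adjusted p = 0.11).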

How the results depend on the processing

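No paired analysis was made, because the groups are separate mice and the labels used here give no litter. Replicate numbers used here follow the order of the samples. The 30 differences of the 10 genes between groups kept their direction and their side of the threshold in 459 of 540 values under 18 alternatives, and in 1056 of 1080 values with 1 library left out, where 10 lost a call, 13 gained one and 1 reversed (*Id2*, ABE-treated against wild-type, to -0.0078 without ABE replicate 2, in a range of -0.0078 to 0.093). The lost calls were all those of *Id4* in ABE-treated against saline-treated mice (without ABE replicates 1, 4, 5, 6, 7 or 11 or saline replicates 3, 5, 8 or 9), while *Smad6* passed in saline-treated against wild-type mice without wild-type replicate 6, 9, 10 or 12, saline replicate 4 or ABE replicate 12. Genes called were 6297 on deposited TPM, 4891 in females alone and 3958 with osteocyte markers as a covariate in saline-treated against wild-type mice (11286 otherwise), and of the 10 genes 5 and, with the covariate, 1. In ABE-treated against wild-type mice they were 7689 with the muscle and 3818 with the osteocyte covariate (15120 otherwise), and 0 of the 10 with the latter. In ABE-treated against saline-treated mice they were 5801 in females, 4364 in males, 2298 with the muscle and 4322 with the endothelial covariate (9817 otherwise), and 1, 2, 0 and 2 of the 10 (4 otherwise). With 1 library left out, 10514 to 11861, 14770 to 15402 and 8448 to 11000 genes were called in the 3 comparisons, and 9 to 10, 8 to 9 and 3 to 6 of the 10. The sex difference of ABE-treated against wild-type mice passed for 2 of the 10 on deposited TPM (*Smad6* and *Nog*) and for 2 without F109436 (*Smad6* and *Id2*), against 1. Of the 45 pairs, 19 correlated in the 12 wild-type libraries alone, 41 on deposited TPM and 29 over all 36 libraries on scaled TPM. Log2 fold changes reversed as follows. Saline-treated against wild-type: *Smad6* to -0.037 in females, and with the osteocyte covariate *Smad6* to -1.02, *Smad7* to -0.26 and *Nog* to -0.74. ABE-treated against wild-type: on deposited TPM *Id2* to -0.50, *Id4* to -0.022 and *Grem1* to -0.20, on TPM rescaled to genes beyond the very short ones *Id2* to -0.18, *Grem1* to -0.16 in females, *Id2* to -0.18 in males, and with the osteocyte covariate *Id3* to -0.030, *Id4* to -0.19, *Smad6* to -0.65 and *Grem1* to -0.37. ABE-treated against saline-treated: on deposited TPM *Id1* to -0.31, *Smad6* to -0.092, *Smad7* to -0.022 and *Smad9* to -0.26, with the muscle covariate *Id1* to -0.14 and *Smad9* to -0.017, and with the endothelial covariate *Id1* to -0.12 and *Smad9* to -0.11. The cause of these changes was not tested, and the fits of each sex alone also hold fewer mice. *Nog*, with 84 reads in its lowest library, has the least depth of the 10.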
